A study of Vitis vinifera with 2 samples.

Results

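Clusters of 22 nt were those siRNA clusters whose most frequent fragment length was 22 nt. They were selected on the DicerCall of each cluster, the size class that the clustering software ShortStack writes beside the position. There were 3228 of them among the 227847 clusters of proliferating embryogenic callus (EC), and 1681 among the 89597 clusters of young leaf tissue, so the class held 4909 of 317444 clusters in all. Every member was used and no filter on low values was applied. The neighbouring size classes held 4505 clusters of 21 nt and 10110 of 23 nt in EC, and 6109 of 21 nt and 5622 of 23 nt in leaf.

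Both tissues came from Vitis vinifera cv. 'Chardonnay', with no further treatment or genotype named. EC was a callus culture able to form embryos, started from anthers, kept in the dark and pooled from several Petri dishes. Leaf samples were young leaves, also pooled, and 1 small RNA library of 18 to 35 nt fragments was made per tissue. Reads recognised as tRNA, rRNA or miRNA had been removed before clustering. The cluster lists carry no gene expression, so the tissue labels were not checked against marker genes.

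Plant siRNAs are cut from double-stranded RNA by DICER-LIKE (DCL) enzymes, and the length of the product tells which enzyme is likely to have made it. In Arabidopsis, DCL2 makes 22 nt siRNAs, DCL4 makes 21 nt siRNAs that act in post-transcriptional silencing, and DCL3 makes 24 nt siRNAs that guide RNA-directed DNA methylation (RdDM). A small RNA of 22 nt is also known, in Arabidopsis, for its capacity to start secondary siRNA production from its target through RDR6, with 21 nt siRNAs as the usual product.

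Clusters lay on 33 sequences of the PN40024 12X assembly of the grapevine genome in each tissue, and no read numbers were listed for them. A cluster resting on few reads therefore counted as much as a deep one, and cluster numbers move with sequencing depth. With 1 library per tissue there was no replicate check and no test between tissues. The 95% intervals given below are exact binomial (Clopper-Pearson) or derived from them, they cover the counting of clusters only, and neighbouring clusters are not independent. In such bulk samples, fewer cells of a type and less small RNA per cell cannot be told apart.

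The first question was how 22 nt clusters were spread over cluster lengths. They made up 1.42% of the EC list (interval 1.37 to 1.47%) and 1.88% of the leaf list (1.79 to 1.97%). Over all lengths there were 1.92 EC members per leaf member, against 2.54 for clusters of all classes. For the members this ratio was uneven over lengths. Members of 30 bp or less, hardly longer than 1 siRNA, numbered 706 in EC and 596 in leaf, a ratio of 1.18 (1.06 to 1.32). Members of 31 to 60 bp numbered 977 in EC and 394 in leaf, a ratio of 2.48 (2.20 to 2.79). Above 100 bp there were 579 in EC and 286 in leaf, a ratio of 2.02 (1.75 to 2.34). Clusters of all classes at these lengths numbered 34403, 44576 and 97947 in EC, and 22449, 19689 and 28349 in leaf. For 24 nt clusters the ratio in these 3 length ranges was 1.90, 2.87 and 4.35, and for 21 nt clusters it was 0.605, 0.904 and 0.622. The 22 nt class thus lay between the 21 nt and 24 nt classes in each of these length ranges.

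The 22 nt clusters were short in both tissues. Their median length was 58 bp in EC (interval 56 to 60 bp, quartiles 32 and 90 bp), against 88 bp over all EC clusters. In leaf it was 47 bp (43 to 51 bp, quartiles 25 and 86 bp), against 66 bp over all leaf clusters. The 21 nt clusters had medians of 65 bp in EC and 66 bp in leaf, and the 24 nt clusters 95 bp in EC and 71 bp in leaf. The 20 and 23 nt clusters were about as short as the 22 nt clusters or shorter. Their medians were 54 and 55 bp in EC, and 47 and 41 bp in leaf. Only 18.8% of EC members and 17.5% of leaf members reached 100 bp, while 43.6% of all EC and 32.2% of all leaf clusters did. Among members longer than 30 bp the order of the tissues turned, with medians of 71 bp in EC and 74 bp in leaf. Members covered 212 kb in EC and 104 kb in leaf.

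Among the shortest members, leaf had more than EC only at 22 and 23 bp, whereas EC had more at each length from 24 to 30 bp. A cluster cannot be shorter than the fragment that names it, and no 22 nt cluster was shorter than 22 bp. Clusters of exactly 22 bp, in which all fragments could share 1 position, numbered 26 in EC (0.805% of members) and 163 in leaf (9.70%), a ratio of 0.160 (0.101 to 0.242). Clusters of exactly 24 bp numbered 229 in EC (7.09%) and 152 in leaf (9.04%). The same count of clusters exactly as long as their size class gave a ratio of 0.192 (0.152 to 0.241) for 21 nt, 0.243 (0.192 to 0.305) for 23 nt and 1.57 (1.52 to 1.62) for 24 nt clusters. The 22 nt class therefore resembled the 20, 21 and 23 nt classes in this feature, with the 20 nt class at 0.224 (0.119 to 0.396).

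**Figure D1:**
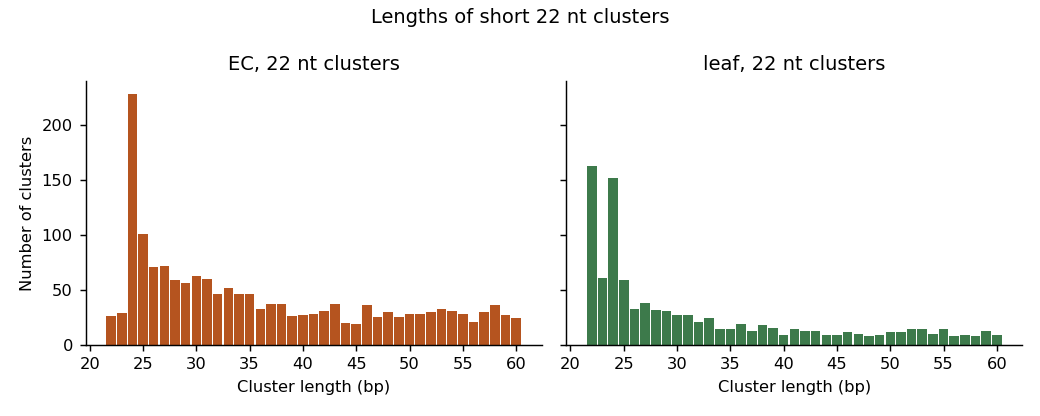
Number of 22 nt clusters (y axis) at each cluster length from 22 to 60 bp (x axis), EC on the left and leaf on the right. EC has a single high bar at 24 bp (229 clusters), whereas leaf has 163 clusters at 22 bp and 152 at 24 bp.

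ShortStack assigns a strand where most reads of a cluster lie on 1 strand. No strand was assigned to 41.9% of 22 nt clusters in EC (interval 40.2 to 43.7%), against 53.4% of all EC clusters. In leaf, 35.5% had none (33.2 to 37.8%), against 44.1% of all leaf clusters. The 20 and 23 nt clusters were close to the 22 nt clusters, with 42.3 and 41.6% in EC and 37.5 and 35.3% in leaf. Among members of 30 bp or less 22.4% of EC clusters had no strand (19.4 to 25.6%), which was above the 15.8% of all EC clusters that short. In leaf it was 14.3% (11.6 to 17.3%), with the 13.0% of all such leaf clusters inside the interval. At 31 to 60 bp the shares were 43.5% in EC (40.4 to 46.7%) and 44.2% in leaf (39.2 to 49.2%), and the 46.2% of all EC and 44.8% of all leaf clusters lay inside the intervals. Above 100 bp the shares were 52.2% for EC members (48.0 to 56.3%) and 51.0% for leaf members (45.1 to 57.0%), against 69.2% and 63.3% of all clusters of that length in EC and leaf. Stranded members were divided nearly evenly, with 963 on the plus and 911 on the minus strand in EC, and 569 on the plus and 516 on the minus strand in leaf.

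Position along the chromosomes was compared next. Each of chromosomes 1 to 19 was divided into 5 parts of equal length. In order along the chromosomes, these parts held the following numbers of 22 nt clusters, 472, 557, 606, 649 and 573 in EC, and 358, 292, 235, 277 and 366 in leaf. The middle part thus held 21.2% of EC members (19.7 to 22.8%) and 15.4% of leaf members (13.6 to 17.3%). Of clusters of all classes it held 22.3% in EC and 15.6% in leaf, both inside the members' intervals. There were 2.58 EC members (2.21 to 3.01) per leaf member in the middle part, against 1.32 (1.15 to 1.52) in the first and 1.57 (1.37 to 1.79) in the last. Clusters of all classes had a ratio of 3.57 in the middle and of 1.67 and 2.25 at the ends. The 24 nt clusters had the same course at a higher level, 4.54 in the middle and 2.17 and 2.96 at the ends. The 21 nt clusters had it at a lower level, 1.08 in the middle and 0.538 and 0.606 at the ends.

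As a share of the clusters in each of the 5 parts, the 22 nt class varied little. It was between 1.34% and 1.54% of EC clusters and between 1.67% and 2.03% of leaf clusters in all of them. By chromosome the share ran from 1.2003% (chromosome 3) to 1.52% (chromosome 2) in EC, and from 1.44% (chromosome 2) to 2.18% (chromosome 18) in leaf. On 0 of the 19 chromosomes in either tissue did the interval exclude the share over all chromosomes together. EC had more 22 nt clusters than leaf on all 19 chromosomes, from 99 against 85 on chromosome 6 (ratio 1.16, interval 0.863 to 1.58) to 149 against 48 on chromosome 2 (3.10, 2.23 to 4.39). Chromosome 6 was the only 1 whose interval held a ratio of 1. Clusters of all classes were also more numerous in EC, with ratios from 1.69 on chromosome 6 to 3.52 on chromosome 10, and 2.95 on chromosome 2. The 22 nt ratio was below that of all classes on 18 of the 19 chromosomes, chromosome 2 being the exception, as it was over the whole lists (1.92 against 2.54).

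**Figure D2:**
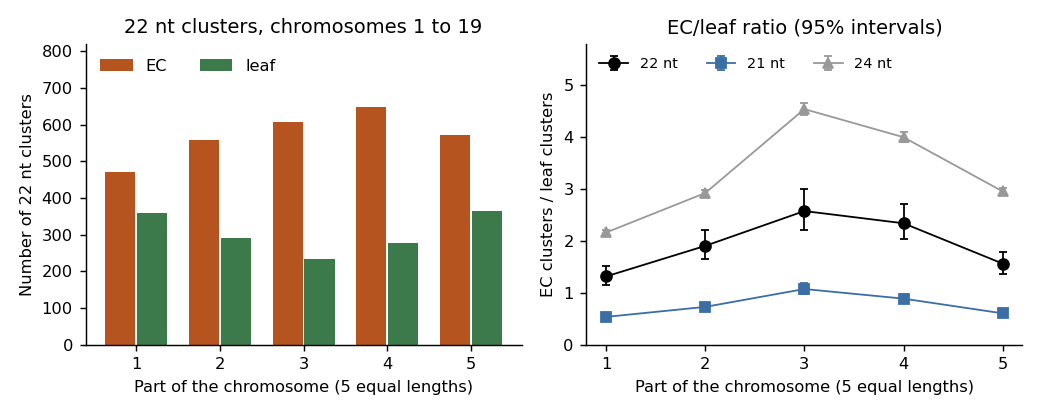
Left, number of 22 nt clusters (y axis) in each of 5 equal parts of the chromosomes, summed over chromosomes 1 to 19 (x axis), EC beside leaf. Right, EC/leaf ratio of cluster numbers per part for 22, 21 and 24 nt clusters with 95% intervals. All 3 ratios are highest in the middle part, where they are 2.58, 1.08 and 4.54.

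In windows of 1 Mb the class was thin. The median of 420 windows was 7 clusters in EC and 3 in leaf, and 5 windows in EC and 24 in leaf had none. EC had more 22 nt clusters in 320 windows, fewer in 78 and the same number in 22. Clusters of all classes were more numerous in EC in 412 of the 420 windows and fewer in 8, and those of 21 nt were more numerous in EC in 160 and fewer in 241. The richest window in EC lay on chromosome 8 from 4 to 5 Mb, where EC had 25 clusters of 22 nt and leaf had 5. These 25 were 3.005% of the 832 EC clusters there. The next richest in EC, on chromosome 2 from 17 to 18 Mb and on chromosome 11 from 14 to 15 Mb, had 16 each, against 3 and 5 in leaf. They were 2.15% of 743 and 2.21% of 725 EC clusters there. In leaf the richest was on chromosome 19 from 22 to 23 Mb, where 7 clusters of EC faced 12 of leaf. Those 12 were 3.40% of the 353 leaf clusters there and stood beside 43 leaf clusters of 21 nt. The next richest in leaf lay on chromosome 17 from 5 to 6 Mb (6 of EC, 10 of leaf), on chromosome 18 from 8 to 9 Mb (7 of EC, 10 of leaf) and, with an equal leaf count, on chromosome 18 from 28 to 29 Mb (8 of EC, 10 of leaf). The members were 4.24, 3.65 and 4.41% of the leaf clusters in these windows. On chromosomes 1 to 19 together the class made up 1.41% of EC and 1.88% of leaf clusters.

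The central question was whether 22 nt clusters lay close to 21 nt clusters. A 21 nt cluster of the same tissue lay within 500 bp of 92 of the 3228 EC members (2.85%, interval 2.30 to 3.48%), against 1.77% of all EC clusters. In leaf it did so for 151 of 1681 members (8.98%, 7.66 to 10.5%), against 4.34% of all leaf clusters. Among 24 nt clusters the shares were 1.47% in EC and 1.63% in leaf, and among 23 nt clusters 1.43% in EC and 1.57% in leaf. The 20 nt clusters came near the 22 nt clusters, with 2.20% in EC and 7.89% in leaf. The 21 nt clusters themselves had a 21 nt neighbour that close in 11.8% of cases in EC and 31.8% in leaf. The distances come from the same lists as the size calls, so these shares are descriptions of the lists.

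**Figure D3:**
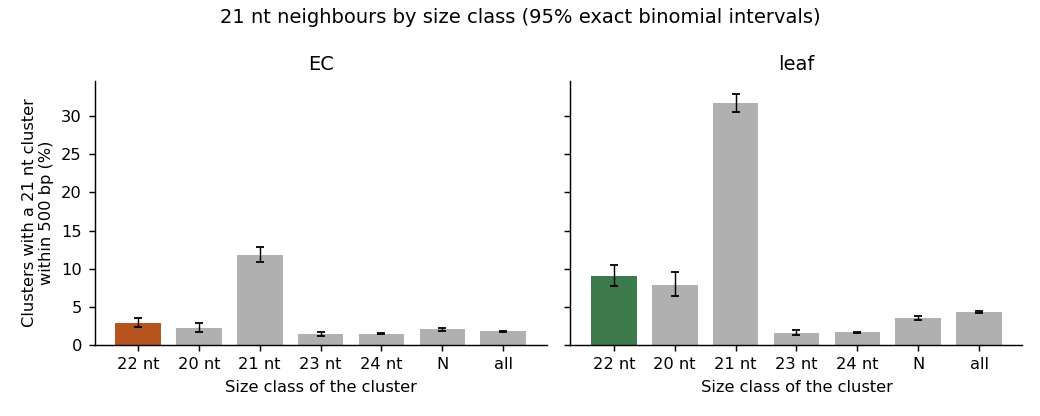
Percentage of clusters with a 21 nt cluster of the same tissue within 500 bp (y axis) by size class of the cluster (x axis), EC on the left and leaf on the right, with 95% intervals. In leaf the 22 nt bar stands at 8.98% and those of the 23 and 24 nt classes at 1.57 and 1.63%, whereas in EC the 22 nt bar stands at 2.85%.

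Most 22 nt clusters nevertheless lay far from any 21 nt cluster. The median distance to the nearest was 35133 bp in EC (33017 to 37072 bp), against 36659 bp for all EC clusters. In leaf it was 28665 bp (26196 to 30686 bp), against 32257 bp for all leaf clusters. The median of all clusters lay inside the members' interval in EC and above it in leaf. Leaf clusters of 23 and 24 nt had medians of 36056 and 34717 bp, and those of 20 nt one of 28871.5 bp. In proportion, the difference from all clusters was larger among the close neighbours. Within 1000 bp there were 150 EC members (4.65%) and 212 leaf members (12.6%) with a 21 nt cluster, against 3.23% of all EC and 6.22% of all leaf clusters. Within 100 bp there were 19 in EC (0.589%) and 31 in leaf (1.84%), against 0.287% of all EC and 1.09% of all leaf clusters. In the 5 kb on either side, a member had on average 0.178 clusters of 21 nt in EC and 0.459 in leaf, against 0.140 and 0.274 around all clusters of EC and leaf.

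Long 22 nt clusters of more than 100 bp had a 21 nt neighbour most often in each tissue. The share with one within 500 bp was 2.55% of EC members of 30 bp or less, 2.46% at 31 to 60 bp, 2.69% at 61 to 100 bp and 4.15% above 100 bp. All EC clusters of these lengths gave 1.67, 1.77, 1.70 and 1.85%, and in the 2 shorter ranges these values lay within the intervals of the EC members. In leaf the shares of members were 6.38, 7.36, 8.15 and 17.8% at the same lengths, against 3.35, 3.67, 3.86 and 5.93% of all leaf clusters, which lay below the members' intervals throughout.

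The members with a 21 nt neighbour were then located. In EC, 24 of the 92 lay on chrUn, the sequence that joins contigs not placed on a chromosome, and 9.88% of the 243 EC members there (6.43 to 14.3%) had such a neighbour, against 2.73% of all EC clusters on chrUn. On chromosomes 1 to 19 the share in EC was 2.28% (1.76 to 2.89%), against 1.71% of all EC clusters there. Distances on chrUn depend on the order in which contigs were joined there. In leaf, 141 of the 151 lay on chromosomes 1 to 19, where 9.23% of leaf members (7.82 to 10.8%) had such a neighbour, against 4.28% of all leaf clusters there. The chromosomes with most of them were chromosome 18 (17 of 134 members), chromosome 13 (15 of 75) and chromosome 19 (12 of 65). The leaf window with most of them lay on chromosome 13 from 21 to 22 Mb and had 5, among 8 clusters of 22 nt and 133 of 21 nt. That window held 402 leaf clusters in all. The share over all leaf clusters was not taken by single chromosome or window. These rankings are therefore not corrected for the number of 21 nt clusters there.

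The surroundings of members with a 21 nt neighbour within 500 bp were set beside those of the other members, without a test. In EC, 33 of the 92 (35.9%) also had a 24 nt cluster within 500 bp, against 1528 of the other 3136 members (48.7%). In leaf it was 10 of 151 (6.62%), against 269 of the other 1530 (17.6%). Over all clusters this share was 56.7% in EC and 28.8% in leaf, and over 21 nt clusters 40.8% in EC and 12.1% in leaf. Clusters of other classes were not split by a 21 nt neighbour, so a trait particular to the members was not tested. Members with a 21 nt neighbour were longer, with medians of 65 bp in EC and 71 bp in leaf, against 58 and 45 bp for the remaining members of EC and leaf. Where member and neighbour each had a strand it was the same one in 19 of 27 cases in EC (70.4%, 49.8 to 86.2%) and in 38 of 55 in leaf (69.1%, 55.2 to 80.9%).

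A 24 nt cluster was the usual neighbour of a 22 nt cluster. The nearest one lay a median of 531.5 bp away in EC (499 to 562 bp), against 394 bp for all EC clusters, and 2856 bp away in leaf (2589 to 3099 bp), against 1570 bp for all leaf clusters. Members were therefore farther from 24 nt clusters than the average cluster was, in both tissues. The nearest 24 nt cluster was within 500 bp for 48.4% of EC members and 16.6% of leaf members, against 56.7% of all EC and 28.8% of all leaf clusters. The 21 nt clusters lay farther still from 24 nt clusters, at medians of 738 bp in EC and 3816 bp in leaf. So did the 20 nt clusters, at 583 bp in EC and 3036 bp in leaf. The 23 nt clusters were nearer than the members, at 445 bp in EC and 1537 bp in leaf. The values for all clusters include the 24 nt clusters, whose medians to one another were 362 bp in EC and 1146 bp in leaf.

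Whatever its class, the nearest cluster lay a median of 356.5 bp from an EC member and 970 bp from a leaf member. In EC it was a 24 nt cluster in 72.1% of cases and a 21 nt cluster in 3.10%, where over all EC clusters it was a 24 nt cluster in 77.7% and a 21 nt cluster in 1.95%. In leaf it was a 24 nt cluster in 50.5% of cases and a 21 nt cluster in 13.4%, against 60.5% and 6.86% over all leaf clusters. Another 22 nt cluster was nearest in 1.86% of cases in EC (1.42 to 2.39%) and 2.26% in leaf (1.60 to 3.09%), against 1.36% over all EC and 1.78% over all leaf clusters.

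Most 22 nt clusters, a small class, stood alone. Another 22 nt cluster lay within 1000 bp of 92 EC members (2.85%, 2.30 to 3.48%), against 2.63% of all EC clusters, and of 43 leaf members (2.56%, 1.86 to 3.43%), against 1.72% of all leaf clusters. The share of all clusters lay within the members' interval in EC and below it in leaf. Joined where they lay within 1000 bp of one another, the 3228 EC members formed 3181 loci, of which 3136 held a single member, and the 1681 leaf members formed 1659 loci, of which 1638 held a single one. The largest loci had 3 members. In EC these were chrUn:1220065-1220873 and chr15:10930870-10932801, the second with all 3 members on the plus strand. In leaf the only one was chr13:21508321-21508981, which also contained a 21 nt cluster and was met in EC by 2 clusters of 21 nt. The tightest group of 2 members in EC, chr8:3434653-3434786 on the minus strand, was met in leaf by a 22 nt cluster and is described among the pairs. In leaf the tightest groups of 2, chr1:6724199-6724344 on the plus strand and chr15:5185344-5185500 on the minus strand, were each met in EC by a single 24 nt cluster.

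The last comparison asked which 22 nt clusters had a counterpart in the other tissue. Of the EC members, 336 (10.4%, interval 9.38 to 11.5%) shared at least 1 bp with a leaf cluster, against 16.1% of all EC clusters. Of the leaf members, 496 (29.5%, 27.3 to 31.8%) shared at least 1 bp with an EC cluster, against 41.1% of all leaf clusters. The denominators differ between the tissues and so do the lengths of the lists met, so the shares of EC and leaf members are not set against each other. Among the other classes in EC, 20.9% of 21 nt, 16.6% of 24 nt and 9.46% of 23 nt clusters were overlapped. In leaf it was 25.3% of 21 nt, 46.0% of 24 nt and 36.2% of 23 nt clusters.

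The share overlapped moved with cluster length, so it was also taken by length. EC members were overlapped in 11.9% of cases at 30 bp or less, 9.52% at 31 to 60 bp, 8.49% at 61 to 100 bp and 13.3% above 100 bp. All EC clusters of these lengths were overlapped in 11.8, 12.4, 13.7 and 20.6% of cases. Leaf members were overlapped in 23.2, 30.2, 30.4 and 40.6% of cases at these lengths, against 32.3, 36.9, 39.7 and 51.8% of all leaf clusters. The 22 nt class was below all clusters in each length range except the shortest in EC. This was not particular to it. The 20 nt class was below all clusters in each range of both tissues, with 13.4% in EC and 32.6% in leaf above 100 bp. The 23 nt class was below them in each range in EC.

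**Figure D4:**
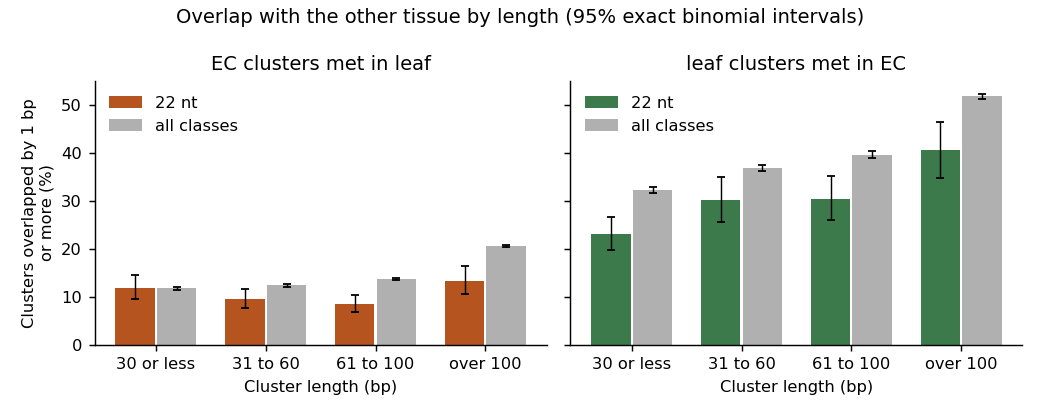
Percentage of clusters overlapped by at least 1 bp of a cluster of the other tissue (y axis) by cluster length (x axis), for 22 nt clusters and for clusters of all classes, with 95% intervals. EC clusters met in leaf are on the left and leaf clusters met in EC on the right. Above 100 bp the 22 nt bars stand at 13.3% in EC and 40.6% in leaf, against 20.6 and 51.8% for all classes.

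Where a 22 nt cluster was overlapped, the cluster of the other tissue was most often called 24 nt. Each overlapped member was given the partner with which it shared most bases. Partners of the 336 EC members were 24 nt clusters of leaf in 178 cases (53.0%, 47.5 to 58.4%), clusters without a size call (N) in 80 (23.8%), 21 nt clusters in 28 (8.33%) and 22 nt clusters in 21 (6.25%, 3.91 to 9.40%). Over all overlapped EC clusters the partner was of 24 nt in 67.5%, of 21 nt in 4.22% and of 22 nt in 1.30% of cases.

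Partners of the 496 leaf members were 24 nt clusters of EC in 325 cases (65.5%, 61.2 to 69.7%), N clusters in 85 (17.1%), 21 nt clusters in 38 (7.66%, 5.48 to 10.4%) and 22 nt clusters in 20 (4.03%, 2.48 to 6.16%). Over all overlapped leaf clusters the partner was of 24 nt in 79.7%, of 21 nt in 2.43% and of 22 nt in 0.875% of cases. In each tissue, then, 24 nt partners were fewer and 21 nt and 22 nt partners more frequent for 22 nt clusters than for clusters of all classes. The 20 nt clusters differed from all classes in the same direction. For EC clusters of 20 nt, 49.4% of partners were of 24 nt, 12.2% of 21 nt and 4.64% of 22 nt. For leaf clusters of 20 nt these shares were 66.7, 4.71 and 2.36%.

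**Figure D5:**
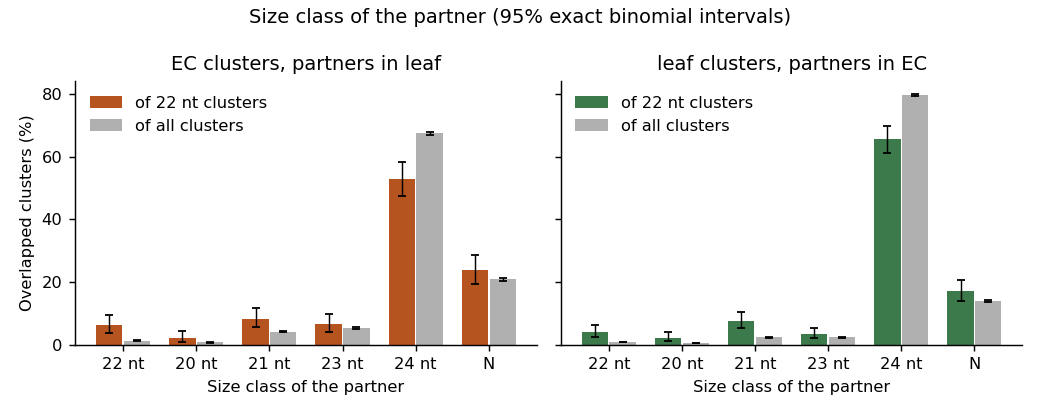
Percentage of overlapped clusters (y axis) whose longest overlap was with a cluster of each size class in the other tissue (x axis), for 22 nt clusters and for clusters of all classes, with 95% intervals. A 24 nt partner is the commonest, for 53.0% of EC members and 65.5% of leaf members, against 67.5 and 79.7% over all classes.

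EC members with a 24 nt partner in leaf had a median length of 58 bp and their partners one of 73 bp, and the partner was longer in 99 of 178 cases. Leaf members with a 24 nt partner in EC had a median length of 55 bp and their partners one of 124 bp, and the partner was longer in 248 of 325 cases. Where both partners of a member had a strand, it agreed in 105 of 120 cases for EC members (87.5%) and in 147 of 165 for leaf members (89.1%), against 90.4% and 90.5% over all EC and leaf clusters.

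Members with a 21 nt neighbour differed from the others in the class of their partners, though in EC this rests on 21 clusters. The same split was not made for clusters of all classes, so whether it is particular to the members was not tested. Of the overlapped EC members with a 21 nt cluster within 500 bp, 6 of 21 had a 24 nt partner in leaf and 7 of 21 a 21 nt partner, against 172 and 21 of the other 315. Of the overlapped leaf members with such a neighbour, 11 of 43 (25.6%) had a 24 nt partner in EC and 14 of 43 (32.6%) a 21 nt partner. Of the other overlapped leaf members, 314 of 453 (69.3%) had a 24 nt partner and 24 of 453 (5.30%) a 21 nt partner. EC members with a 21 nt neighbour were also met in leaf more often, in 21 of 92 cases (22.8%) against 315 of 3136 (10.04%). For leaf members the shares met were close, 28.5% with a 21 nt neighbour and 29.6% without.

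There were 22 pairs of overlapping clusters called 22 nt in both tissues. They involved 22 EC members (0.682% of the class) and 21 leaf members (1.25%), on 14 sequences, and shared between 21 and 309 bp. Among overlapped clusters, 6.55% of EC members met a 22 nt cluster of leaf, against 1.36% over all classes. In leaf it was 4.23% of overlapped members, against 0.916% over all classes. Of the 17 pairs in which each cluster had a strand, 16 were on the same strand, and the exception was on chromosome 2 at 16429995 in EC. Over all overlapped clusters with a strand on both sides, the strand agreed in 90.4% for EC and 90.5% for leaf. In 2 of the pairs the EC cluster and in 6 the leaf cluster had a 21 nt cluster within 500 bp. The same leaf cluster on chromosome 8 is in 2 of these 6 pairs.

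The pair with the largest summed length was on chromosome 18. In EC it spanned chr18:28295259-28295622 (364 bp) and in leaf chr18:28295169-28295567 (399 bp), both on the plus strand, with 309 bp in common. It was the third longest member in each tissue. A long 21 nt cluster on the plus strand lay beside it in both tissues, 152 bp away and 422 bp long in EC, and 139 bp away and 330 bp long in leaf. The nearest 24 nt cluster was 2100 bp away in EC and 2286 bp away in leaf.

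At the other 9 of the 10 longest pairs the nearest 21 nt cluster was 433 bp or more away in each tissue. On chromosome 16 an EC cluster of 94 bp (chr16:2707485-2707578) met the longest 22 nt cluster of leaf, 655 bp at chr16:2706874-2707528, and both were on the plus strand. They had only 44 bp in common, 6.72% of the leaf cluster. EC clusters without a size call shared more of it, 137 and 123 bp, so its partner of longest overlap was an N cluster. On chromosome 9 an EC cluster of 323 bp (chr9:9153371-9153693) met a leaf cluster of 269 bp (chr9:9153190-9153458) on the minus strand, with 88 bp in common. On chrUn a pair of 193 bp in EC and 163 bp in leaf shared 140 bp on the minus strand. A pair on chromosome 19 had nearly the same limits in both tissues, chr19:9740508-9740634 in EC and chr19:9740507-9740636 in leaf. So did a pair on chromosome 11, chr11:13583894-13584020 in EC and chr11:13583894-13584018 in leaf, which had no strand in EC and the plus strand in leaf.

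Some of the long pairs joined a long cluster of 1 tissue to a fragment-sized cluster of the other. A leaf cluster of 253 bp on the minus strand (chr8:3434594-3434846), with a 21 nt cluster 433 bp away, was met by 2 separate EC clusters of 26 and 22 bp on the same strand. A leaf cluster of 249 bp (chr2:855569-855817) was met by an EC cluster of 26 bp that began at the same base. On chromosome 12 it was the other way round, with an EC cluster of 213 bp (chr12:7546576-7546788) and a leaf cluster of 41 bp within its limits.

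Of the 5 longest EC members, 3 had no leaf cluster on them. These were chr16:12494565-12494934 (370 bp, the longest, minus strand), chrUn:40282947-40283302 (356 bp) and chr2:14453524-14453863 (340 bp). At the first and the last of them the nearest cluster was of 24 nt, at 435 and 317 bp. Another, chrUn:29059706-29060074 (369 bp), was met over 16.8% by a leaf N cluster of 62 bp.

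All 5 of the longest leaf members had an EC cluster on them, in a list that is longer than the leaf list, and 2 of these were covered almost wholly by a 21 nt cluster of EC. At chr5:22564259-22564795 the 537 bp leaf cluster called 22 nt and the EC cluster called 21 nt had identical limits and the plus strand in common. At chr15:16480803-16481160 (358 bp, minus strand) an EC cluster of 21 nt, 362 bp long and with no strand, covered 95.8%. Another, of 341 bp on chr18_random, was met over 26.7% by an EC cluster of 24 nt.

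ShortStack marked 3 of the EC members (0.0929%, interval 0.0192 to 0.271%) and 5 of the leaf members (0.297%, 0.0966 to 0.693%) as miRNA loci, against 15 of all EC clusters (0.00658%) and 22 of all leaf clusters (0.0246%). Among 21 nt clusters 8 in EC (0.178%) and 12 in leaf (0.196%) were marked, so such marks were not particular to the 22 nt class. Marks remained although miRNA reads recognised by the study had been taken out before mapping. A pair of loci lay together on chromosome 1. The first, chr1:3865585-3865662 in EC (78 bp) and chr1:3865561-3865662 in leaf (102 bp), was called 22 nt and marked in both tissues. The second, chr1:3865810-3865941 (132 bp, plus strand), lay 147 bp downstream with the same limits in both tissues, and was called 22 nt and marked in EC, but called 21 nt and not marked in leaf.

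The third marked EC member, chr14:19755472-19755586 (115 bp, minus strand), was met in leaf by a cluster of 95 bp called 20 nt, which was also marked. Of the other marked leaf members, chr17:5521558-5521687 (130 bp, plus strand) was met in EC by a 21 nt cluster of 82 bp and chr7:19450025-19450104 (80 bp, plus strand) by a 21 nt cluster of 24 bp, neither of them marked in EC. These 2 leaf members also had a leaf 21 nt cluster 226 and 76 bp away. The marked leaf members chr13:4265142-4265217 (76 bp) and chr16:17247183-17247302 (120 bp) had no EC cluster on them, which does not show that EC lacked these small RNAs, since a cluster is listed only where enough reads were found.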

How the data were processed

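Small RNA from 1 EC and 1 leaf library was processed by the authors. After trimming and size selection in the UEA small RNA Workbench, PatMaN was used to discard tRNA and rRNA reads, and reads identified as miRNA were taken out. The remainder was mapped to the PN40024 12X genome and clustered with ShortStack, which places multi-mapping reads by the unique reads nearby and can thereby shift clusters, with minimum coverage and padding not given in the sources used here. Deposited lists hold positions, strands, DicerCalls and miRNA marks, with 0 scores, so the depth behind each cluster is unknown.

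Members were the clusters with a DicerCall of 22. Their choice, the lists and the comparisons were made with earlier results of these data known. Distances run edge to edge within a tissue, overlap between tissues needed 1 bp, and the partner was the cluster with the longest overlap. Members were placed by midpoint in 5 equal parts of each chromosome and in complete windows of 1 Mb, the largest cluster end serving as sequence length. Medians have order-statistic intervals. Intervals of EC/leaf ratios rest on the exact binomial share that EC holds of each sum. No test was made between tissues or classes.

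Clusters named were the 5 longest per tissue, those with a miRNA mark, the 10 longest pairs called 22 nt in both tissues, the 3 richest windows of chromosomes 1 to 19 (with 1 window tied in leaf) and the 3 tightest groups within 1000 bp. The distance of 500 bp, the lengths of exactly 22 and 24 bp, chrUn and the windows with most 21 nt neighbours were singled out after their values were seen, as was the pair of opposite strands. Genes, repeats and sequences were not analysed here, since no annotation of this build was used. Scripts ran in Python 3.11.15 (numpy 2.4.6, pandas 2.3.3, scipy 1.17.1, matplotlib 3.10.9), and distances and overlaps were tested on simulated data.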

Additional observations from a re-analysis of the deposited data

How the results depend on the processing

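Of 86 values recomputed under other settings, 70 stayed within the interval of the main value (cluster numbers within 1.5 times) and 16 moved. Restriction to clusters longer than 30 bp moved 12. The leaf list then had 1085 clusters of 22 nt, the class made up 1.30% of the EC list and 1.62% of the leaf list, median lengths were 71 bp in EC and 74 bp in leaf, and 47.4% of EC and 47.1% of leaf members had no strand. The nearest 21 nt cluster was then at a median of 46802 bp in EC and 38683 bp in leaf, the nearest 24 nt cluster at 618 bp in EC and 3606 bp in leaf, and 8.49% of EC members were overlapped in leaf. Without the short clusters the median length in EC was thus no longer above that in leaf. Requiring overlap of at least 50% of the member gave 7.13% of EC and 22.7% of leaf members overlapped. Between midpoints, the nearest 24 nt cluster in EC was at 617.5 bp. On chromosomes 1 to 19 only, 2.28% of EC members had a 21 nt cluster within 500 bp. This share was not among the values first planned, and its alternatives were chosen after seeing the data. Leaving out clusters marked as miRNA loci, an overlap of at least 10 bp and counting any overlapping cluster of a class moved 0 values. No paired analysis was possible because EC and leaf were represented by a single library each, and no library could be left out. Reads per cluster are unknown, so the depth of the libraries limits every count of clusters and every share met in the other tissue.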
